A study of Homo sapiens with 6 samples.

Results

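The regions described here carried a peak of the second MEIS2 library and of no other library mapped in SK-N-BE(2) cells, an established line from human neuroblastoma that carries amplified MYCN. The intervals of 5 peak lists on chromosomes 1 to 22 and X were pooled, intervals that overlapped by 1 bp or more were merged, and the merged regions that held MEIS2 replicate 2 alone were kept. This gave 8800 of 61457 merged regions (14.3%), and each held exactly 1 MEIS2 replicate 2 peak. They are 8800 of the 13871 peaks of that list, or 63.4% (95% exact binomial interval 62.6 to 64.2%). The remaining 5071 peaks of the same list, which overlap another list, serve as the comparison throughout.

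All libraries came from SK-N-BE(2) cells, for which the labels used here name no treatment and no genetic change, and differ in the antibody: MEIS2 (sc-515470, 2 libraries), HAND2 (ab200040, 2 libraries), TCF4 (ab217668, 1 library) and a non-specific IgG control (ab172730, 1 library, whose own peak list is not analysed here). CUT&Tag was used, which brings a transposase to the protein through an antibody so that nearby DNA is cut and tagged. No label says whether replicates came from separate cultures. Every value of a region comes from 1 library, and the regions were chosen by the presence or absence of peaks in the lists, so no region has a replicate check.

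MEIS2 is a homeodomain transcription factor of the TALE class. MEIS proteins bind DNA beside PBX and HOX partners, and in neuroblastoma MEIS2 belongs to the regulators of the adrenergic, sympathetic neuron-like state, together with HAND2. Neuroblastoma cells can also take a mesenchymal state, in which AP-1 factors and YAP with TEAD factors are active.

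MEIS2 replicate 2 stood apart from the other lists in how many of its peaks were alone. Its 63.4% compares with 5.59% of MEIS2 replicate 1 peaks (536 of 9595), 15.4% of HAND2 replicate 1 (4687 of 30410), 15.6% of HAND2 replicate 2 (5207 of 33484) and 43.2% of TCF4 (13262 of 30704). All 13876 peak identifiers of the MEIS2 replicate 2 list, before chromosomes were selected, contain the word Flag, and those of the other 4 lists do not. The labels name the same MEIS2 antibody for both MEIS2 libraries, and what the word stands for is not given in the sources used here. Of the 5071 MEIS2 replicate 2 peaks that were not alone, 92.9% lay in a region with HAND2 replicate 1, 78.4% with HAND2 replicate 2, 48.1% with MEIS2 replicate 1 and 28.7% with TCF4.

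The sequences below are promoter stretches that these regions covered, read 5′ to 3′ on the strand of the gene from the RefSeq promoter table of GRCh38.p14 (250 bases before to 50 after each start). The first 4 belong to lncRNA genes and are, with HECW2-AS1, which held none of the motifs in capitals, the 5 covered promoters of highest fold. ANKRD1 and TM4SF4 are protein-coding genes with a region of MEIS2 replicate 2 alone at their 5′ end, both among the highest folds at gene ends. MPP4 is a further such gene, at 11.3-fold. Its promoter was covered over 158 bases, held none of the motifs in capitals and is not printed. Capitals mark TGANTCA (the AP-1 pattern), TGACAG or its complement (the core of the MEIS site) and GGAATG or its complement (the TEAD site). N is any base, so TGANTCA is wider than the AP-1 site proper, which has C or G there. The other 3 of the 8 covered promoters of highest fold, at KIAA0319, LINC02399 and LOC101928540, were covered over 9, 51 and 170 bases. These stretches also held none of the motifs in capitals and are not printed. Only stretches with such a motif are printed, so they do not show how frequent the motifs are.

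LURAP1L-AS1 promoter, chr9:12814340-12814639, minus strand: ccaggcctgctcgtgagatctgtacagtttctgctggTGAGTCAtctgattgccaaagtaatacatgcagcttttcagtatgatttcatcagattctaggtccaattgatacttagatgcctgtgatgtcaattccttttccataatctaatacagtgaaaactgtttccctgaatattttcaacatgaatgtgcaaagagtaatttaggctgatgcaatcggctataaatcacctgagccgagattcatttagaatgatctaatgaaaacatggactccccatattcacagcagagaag

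LOC105373907 promoter, chr2:223488818-223489117, plus strand: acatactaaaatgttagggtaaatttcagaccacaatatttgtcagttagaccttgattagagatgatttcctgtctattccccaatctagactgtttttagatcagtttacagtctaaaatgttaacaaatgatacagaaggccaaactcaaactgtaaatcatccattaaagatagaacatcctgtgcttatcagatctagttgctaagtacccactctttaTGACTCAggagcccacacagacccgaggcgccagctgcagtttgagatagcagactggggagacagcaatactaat

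RBMS3-AS2 promoter, chr3:29642767-29643066, minus strand: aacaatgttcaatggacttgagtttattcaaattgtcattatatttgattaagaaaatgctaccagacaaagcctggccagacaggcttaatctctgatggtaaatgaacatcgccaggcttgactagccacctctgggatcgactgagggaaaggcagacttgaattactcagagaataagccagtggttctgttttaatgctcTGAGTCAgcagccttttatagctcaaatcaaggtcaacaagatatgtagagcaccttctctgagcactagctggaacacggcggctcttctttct

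RDUR promoter, chr3:101940609-101940908, plus strand: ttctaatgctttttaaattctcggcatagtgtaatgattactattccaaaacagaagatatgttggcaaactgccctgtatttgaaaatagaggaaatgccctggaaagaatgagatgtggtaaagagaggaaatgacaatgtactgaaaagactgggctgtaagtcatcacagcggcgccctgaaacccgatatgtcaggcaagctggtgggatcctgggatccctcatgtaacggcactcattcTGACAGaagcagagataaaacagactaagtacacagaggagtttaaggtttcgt

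ANKRD1 promoter, chr10:90921078-90921337, minus strand: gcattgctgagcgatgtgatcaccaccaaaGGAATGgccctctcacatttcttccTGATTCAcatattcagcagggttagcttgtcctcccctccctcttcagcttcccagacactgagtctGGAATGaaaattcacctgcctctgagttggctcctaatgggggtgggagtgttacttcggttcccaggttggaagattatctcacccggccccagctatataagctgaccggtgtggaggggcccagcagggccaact

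TM4SF4 promoter, chr3:149474447-149474495, plus strand: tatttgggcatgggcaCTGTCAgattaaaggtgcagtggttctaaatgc

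The region over LURAP1L-AS1 reached 28.3-fold over the local background, with a pile-up of 49 fragments at the summit, and the covered promoter held 1 AP-1 site and no MEIS core. At LOC105373907 the fold was 25.5 and at RBMS3-AS2 18.1, again with 1 AP-1 site each and no MEIS core. The RDUR promoter, at 24.9-fold, held 1 MEIS core and no AP-1 site. ANKRD1 is a cardiac and stress-induced ankyrin repeat gene and a standard target of YAP and TEAD. Its 260 covered bases held 2 TEAD sites and 1 match to TGANTCA. This match, TGATTCA, has T at N and is not the AP-1 site proper. The 49 bases covered at TM4SF4, a tetraspan membrane protein gene, held 1 MEIS core. The summit lay inside the promoter at LURAP1L-AS1, LOC105373907 and RDUR, and outside it at RBMS3-AS2, ANKRD1 and TM4SF4. A match is a run of letters and does not show that a factor sits there.

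Over all 142 promoters that the regions touched, the TGANTCA pattern was more frequent than in promoters at large. Its matches were not divided by the base at N. TGANTCA occurred in 48 of them, or 33.8% (26.1 to 42.2%), against 22.3% (17.5 to 27.7%) of the 278 promoters touched by the other MEIS2 replicate 2 peaks and 7.68% of all 34961 promoters in the table. The interval for the regions overlaps that for the other MEIS2 replicate 2 peaks and lies above the share of all promoters. The MEIS core TGACAG, searched on both strands like the other motifs, occurred in 20.4% (14.1 to 28.0%), against 22.3% for the other peaks and 15.8% of all promoters. Its interval includes the share of all promoters. The E-box CANNTG, the site of bHLH factors such as HAND2 and TCF4, was found in 83.1%, against 78.4% for the other peaks and 68.7% of all promoters. The TEAD site GGAATG was found in 20.4%, against 17.6% for the other peaks and 14.0% of all promoters. TGATTGAC, a joint PBX and MEIS site that can share bases with TGACAG, occurred in 1 promoter of 142 (0.704%), against 0.360% for the other peaks and 0.578% of all promoters. The TGANTCA pattern and the TEAD site were added after values of these regions had been seen.

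Base composition moved with these shares. The touched promoters had a median GC content of 44.2%, against 49.0% for those touched by other MEIS2 replicate 2 peaks and 58.7% for all promoters. Among promoters of at most 50% GC, TGANTCA occurred in 33.3% of those touched by the regions (42 of 126, 25.2 to 42.3%), in 29.9% of those touched by the other peaks and in 13.4% of all. Within this class the MEIS core stood at 22.2%, against 21.02% for the other peaks and 18.7% of all promoters. The E-box stood at 81.7% (73.9 to 88.1%), against 80.3% for the other peaks and 79.0% of all promoters, and the TEAD site at 21.4% (14.6 to 29.6%), against 17.8% and 19.0%. For these 3 motifs the interval of the regions includes the share of all promoters in the class, and most of the E-box and TEAD difference seen over all promoters is absent from it. The promoters touched were 133 genes, 48 of them protein-coding, and only 46 regions had their summit within one. No promoter of chromosome 8 was used, so these shares leave out the chromosome with the most regions per gene.

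A further 2 regions overlapped a miRNA hairpin, of 1562 hairpins searched in the RefSeq table. The mature sequences are shown with the seed, bases 2 to 8, in capitals.

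hsa-let-7a-5p: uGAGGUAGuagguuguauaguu

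hsa-let-7a-2-3p: cUGUACAGccuccuagcuuucc

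hsa-miR-4303: uUCUGAGCugaggacag

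The hairpin of let-7a-2 (MIRLET7A2, chr11:122146522-122146593) was reached by the end of a region at chr11:122146125-122146585, with a fold of 9.07 and a pile-up of 15. Let-7 miRNAs restrain growth genes and are held back by LIN28B in neuroblastoma. MIR4303 (chr12:97995383-97995448) lay wholly inside a region of 11.9-fold and a pile-up of 20. The nearest peaks of other lists were 40407 and 14714 bp from these regions.

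Most of the regions were small peaks. The pile-up at the summit, the number of overlapping fragments found from the deposited fold and p-value, had a median of 11 fragments (range 6 to 342), against 16 in the other MEIS2 replicate 2 peaks (range 6 to 1410). Their fold over the local background, as the authors deposited it, had a median of 6.23 (1.45 to 52.1), against 6.68 (1.37 to 73.7). The median −log10 q was 7.07, against 8.76, and the median width 613 bp, against 784 bp. At the lowest background the list allows, which corresponds to 2.08 control fragments, stood 72.0% of the regions, against 32.8% of the other peaks. Most folds of the regions therefore rest on the pile-up over the same floor, after the same constant was added to both.

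The share of MEIS2 replicate 2 peaks that were alone fell as the pile-up rose. It was 84.5% (82.9 to 86.0%) at pile-ups of 6 to 8, 77.1% at 9 to 11, 64.4% at 12 to 15, 52.0% at 16 to 20 and 36.4% (34.6 to 38.3%) at 21 or more. None of these 5 intervals overlap. The regions nevertheless included strong peaks: 1424 (16.2%) had a fold of 10 or more, against 22.8% of the other peaks, and 148 (1.68%) had 20 or more, against 4.003%. Ranked by fold, the regions made up 28 of the 100 highest MEIS2 replicate 2 peaks, 223 of the highest 500 and 488 of the highest 1000. A −log10 q of 5 or more was reached by 6380 of the regions (72.5%), against 78.8% of the other peaks.

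**Figure D1:**
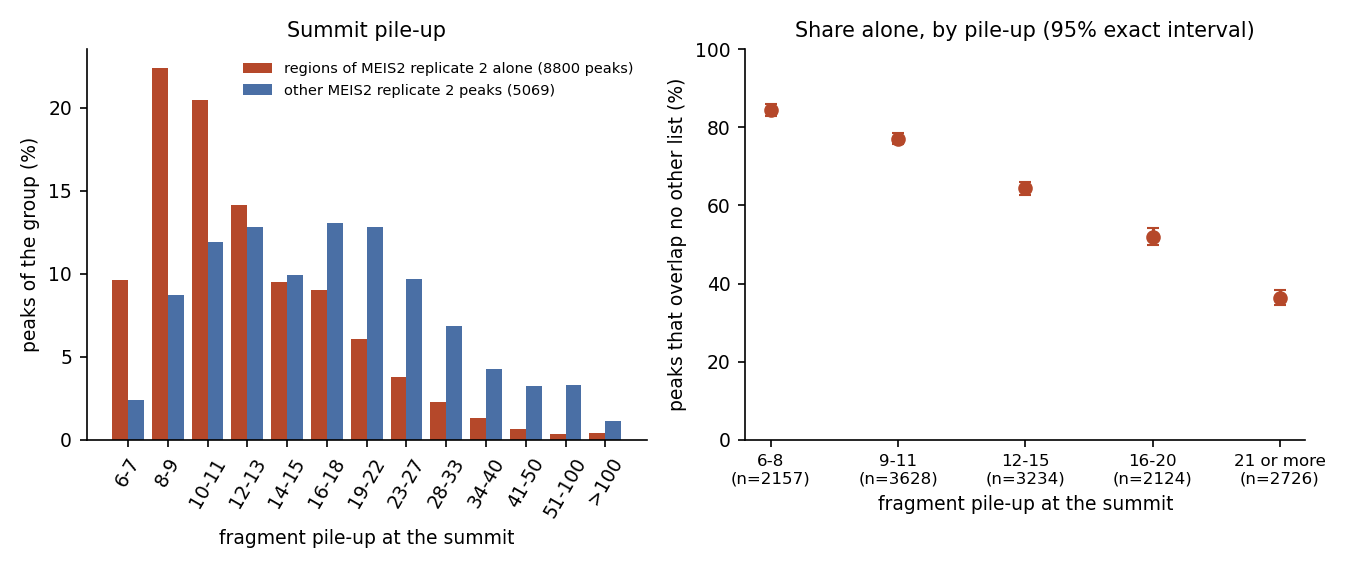
Left, the share of each group of MEIS2 replicate 2 peaks (y axis, %) by fragment pile-up at the summit (x axis), for the 8800 peaks alone in their region and for the other peaks with a pile-up. Right, the share of MEIS2 replicate 2 peaks that overlap no other list in 5 classes of pile-up, with 95% exact binomial intervals. The share falls to 36.4% at pile-ups of 21 or more.

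Very high pile-ups were found in 1 place. The local background exceeded 30 control fragments in 33 regions (0.375%, against 1.52% of the other peaks), and 32 of these lay in chr2:16022732-16420746, which starts 75728 bp beyond MYCN (chr2:15940550-15947004), the gene amplified in this line. There the background was 71.4 to 511 control fragments, the pile-up 107 to 342 and the fold 1.45 to 7.67. Outside this stretch no region had a pile-up above 119. The part of copy number in these peaks was not tested, and they are 32 of 8800 regions.

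The strongest region by fold lay inside TRPS1, which encodes a GATA-type repressor, at chr8:115451230-115453351. Its fold was 52.1 (95% counting interval 42.1 to 63.9) at a pile-up of 91, and the nearest peak of another list was 32655 bp away. A region at chr11:128210315-128210989 had 51.6 (41.6 to 63.3); it lay inside LINC02098 and 248185 bp from ETS1, an ETS family transcription factor. DLG2, a postsynaptic scaffold gene, held a region of 50.4-fold (41.3 to 60.9, pile-up 105). The fourth, at chr15:37220728-37222537, stood at 48.7-fold (39.0 to 60.1, pile-up 85). It lay 120015 bp beyond MEIS2 itself, and 97959 bp from any peak of another list. The intervals of these 4 folds overlap, so their order is not set by the counts.

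Next in rank came regions 116320 bp from CMPK2, a mitochondrial nucleotide kinase gene (48.6-fold), inside SNTG1, a syntrophin gene (45.3-fold), and 11259 bp from ALCAM, a cell adhesion gene (41.4-fold). AAMDC held a region of 40.8-fold. ETV1, another ETS factor, held 1 of 40.2-fold, and a region of 39.7-fold lay 7682 bp from TRIB2, a pseudokinase gene. The SNTG1 region was 1132070 bp from the nearest peak of another list, and that of TRIB2 5444 bp. Of the 10, 5 lay inside a protein-coding gene and 5 outside, and the nearest gene outside was 7682 to 248185 bp away.

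Around MEIS2 (chr15:36889204-37101311), 7 regions had this gene as their nearest: 5 inside it and 2 beyond its higher-coordinate end. The 5 inside had folds of 4.53, 6.23, 16.4, 5.10 and 7.37 in order of position, with pile-ups of 7 to 28. The most distant, 296341 bp from the gene, had 7.37 and missed a HAND2 replicate 2 peak by 3 bp. Another 7 MEIS2 replicate 2 peaks nearest to MEIS2 overlapped other lists and so were not among the regions.

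The regions lay away from gene ends. A summit no more than 1 kb from a protein-coding gene end was found in 120 of 8800, or 1.36% (1.13 to 1.63%), against 4.02% (3.50 to 4.60%) of the other MEIS2 replicate 2 peaks and 5.49% (4.62 to 6.47%) of those in regions with both MEIS2 replicates. None of the last 2 intervals reaches that of the regions. Among regions held by 1 other list alone the share was 2.52% for HAND2 replicate 1, 4.74% for HAND2 replicate 2, 9.70% for MEIS2 replicate 1 and 37.5% for TCF4, and over all merged regions it was 16.7%. These intervals count peaks of single libraries and say nothing of the spread between libraries.

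The difference was also present between peaks of like size. At pile-ups of 9 to 11 the share at gene ends was 1.18% (0.813 to 1.65%) in the regions, against 3.01% (1.96 to 4.41%) in the other peaks. At 12 to 15 it was 1.68% against 4.69%, at 16 to 20 1.63% against 5.20%, and at 21 or more 1.11% against 3.87%, and in each of these 4 classes the intervals are apart. At 6 to 8 the shares were 1.26% and 1.497%, with overlapping intervals on 334 other peaks. The rule sorts peaks by overlap with other lists, and 16.7% of all merged regions had their summit at a gene end. Of these 10273 regions at gene ends, 4977 held TCF4 alone. Without the TCF4 list, the share at gene ends among regions of MEIS2 replicate 2 alone was 1.43%, against 1.36%. Comparing like pile-ups leaves the sorting by overlap in place, and how far the rule itself sets the difference was not tested.

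Inside a protein-coding gene lay the summits of 49.3% (48.3 to 50.4%) of the regions, against 53.8% (52.4 to 55.2%) of the other peaks. More than 100 kb from any protein-coding gene lay 24.4% (2145 regions), against 17.7%, and more than 500 kb away 4.50% (396 regions), against 2.07%. The median distance to a gene end was 67125 bp (64619 to 69743), against 50111 bp (47741 to 52957). For lncRNA genes, 3.43% of the regions and 5.07% of the other peaks were within 1 kb of an end, and 20.1% and 19.5% lay inside the gene. Exons and introns could not be told apart, since the gene table used gives only the start and end of each gene.

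**Figure D2:**
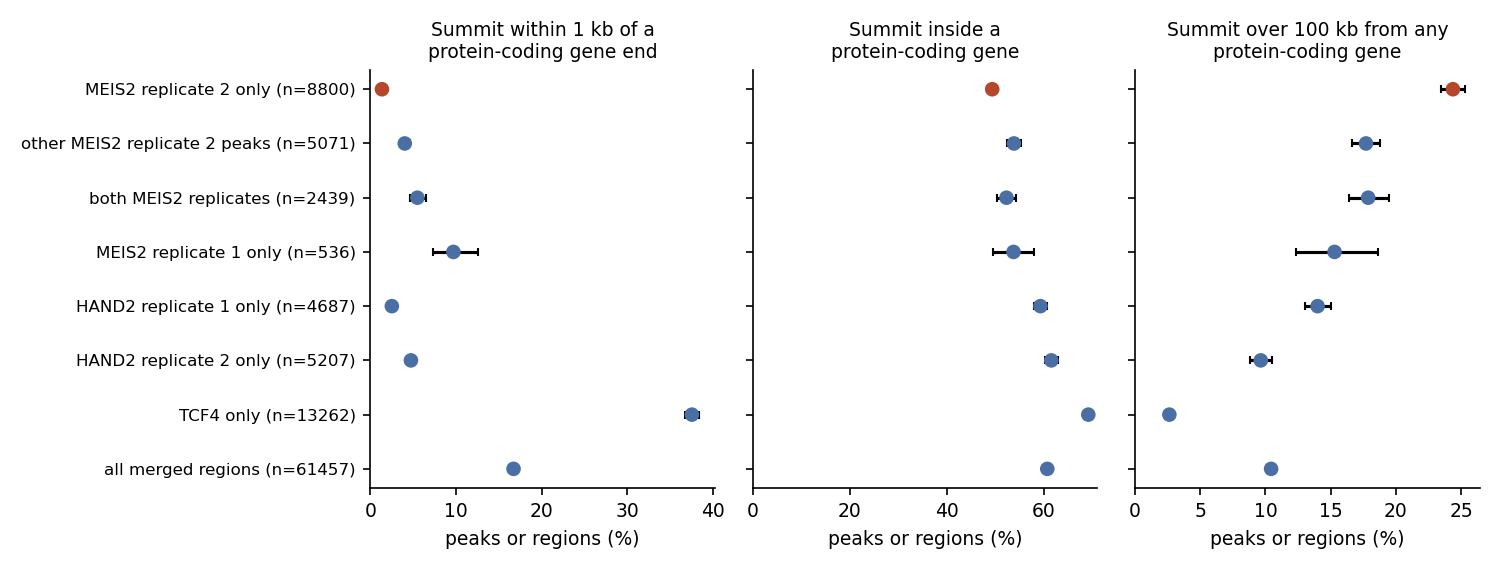
Share of summits (x axes, %) within 1 kb of a protein-coding gene end, inside a protein-coding gene and over 100 kb from any, for regions of MEIS2 replicate 2 alone (top, red) and for other groups of peaks or regions below. Bars are 95% exact binomial intervals, some smaller than the symbol. At gene ends the regions stand at 1.36%, the lowest of the 8 groups drawn.

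Among the 120 regions at gene ends, 40 were at a 5′ end, 52 at a 3′ end and 28 at genes whose strand was not given, against 110, 50 and 44 of the 204 other peaks at gene ends. In fold these 120 ran between 2.97 and 18.7, with a median of 6.01. The highest stood near the 3′ end of MYCT1 (chr6:152745663-152746574), at 18.7-fold (12.97 to 26.2, pile-up 32). A region 684 bp beyond the 3′ end of PRIMPOL, a primase-polymerase gene, had 14.2 and lay inside a neighbouring gene. MTARC1, a mitochondrial reductase gene, had 13.03 at its 3′ end.

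At 5′ ends, TM4SF4 had a region of 12.5-fold (7.93 to 18.8) and so did PDE4D, a cAMP phosphodiesterase gene, where the summit lay inside the lncRNA gene PART1. ANKRD1 had 11.9 (7.49 to 18.1, pile-up 20), at chr10:90921078-90921912, with its summit 529 bp from the gene; the covered promoter is printed above. MPP4, a scaffold gene of photoreceptor synapses, had 11.3. INSYN2B, whose strand was not given, had 12.5. PDE4B, a second cAMP phosphodiesterase gene, had 11.9 at its 3′ end, and FOXO3, a forkhead factor gene, had 11.8 at its 3′ end, only 711 bp from a MEIS2 replicate 1 peak. The counting intervals of these 10 folds, that of MYCT1 included, overlap one another, so their order is not set by the counts.

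By gene, 170 of 19974 protein-coding genes (0.851%) had a region at an end, 2014 (10.1%) had a summit in the body and 4256 (21.3%) had 1 in the body or within 50 kb of it. These shares grow with gene length: a summit in the body was found in 0.336% of genes shorter than 10 kb and in 61.5% of those of 300 kb or more. MAML2, a Notch coactivator gene (366.598 kb), held 29 regions, the most of any gene, with folds of 3.23 to 13.9, beside 14 other MEIS2 replicate 2 peaks. SLC8A1, a sodium-calcium exchanger gene, held 21, NRG1, the neuregulin 1 gene, 19, and AKAP6, which anchors protein kinase A, 18.

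LRMDA held 18 regions, NFIB, a nuclear factor I gene, 17, ANK3, the ankyrin-G gene, 16, and LPP, a LIM-domain gene, 16, while AUTS2, DLG2 and FMN1, a formin gene, held 15 each. These genes are 366.598 to 2173.36 kb long. Per 100 kb, MAML2 had 7.91 regions, SLC8A1 5.06 and DLG2 0.690. At NRG1 and LPP only 1 MEIS2 replicate 2 peak each overlapped another list, so nearly all peaks of that library in these genes were alone.

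The gene lists were read against the 21.3% of all protein-coding genes with a summit in the body or within 50 kb. For the other MEIS2 replicate 2 peaks, which are fewer (5071 against 8800), that share was 16.4%. Of 25 adrenergic regulators, 11 had 1 (44.0%, exact interval 24.4 to 65.1%), and 13 had another MEIS2 replicate 2 peak. They included EYA1 (6 regions, highest fold 14.2), TCF4 (6, 11.3), HAND2 (4, 11.3) and ISL1 (1, 5.67). TCF4, the E protein gene, was the only member of this list with a region at an end, at 3.97-fold and a pile-up of 6, the lowest pile-up among all regions. Genes of catecholamine synthesis and storage, the products of that state, had 5 of 20 (25%), among them CHGB at 5.20-fold and SLC18A1, the vesicular monoamine transporter gene, at 5.10.

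Of 30 mesenchymal state genes, 17 had a region in the body or within 50 kb (56.7%, 37.4 to 74.5%), and 12 had another MEIS2 replicate 2 peak. Both shares of this list, and both of the adrenergic list, lie above those of all genes, and the intervals of the 2 lists overlap. VIM, the vimentin gene, had 6 regions, 1 of them at an end at 6.23-fold. WWTR1, which encodes the YAP partner TAZ, had 5 (highest fold 12.5), TWIST1 4 (6.80), TEAD1 3 (16.4), PRRX1 2 (10.8), FOSL2 2 (3.58) and JUN 1 (10.8). A list of 23 YAP and TEAD targets, added after values of these regions had been seen, had 15 (65.2%, 42.7 to 83.6%). Another MEIS2 replicate 2 peak was found at 8 of them (34.8%). Over all genes these shares were 21.3% and 16.4%, so both kinds of peak stood above their background. ASAP1 had 12 of the regions, CRIM1 7, RBMS3 7 and DOCK5 6, and none of these 4 had 1 at an end. Each of these 4 genes is longer than 100 kb, well above the median of its list. Median gene length was 37.0 kb in the mesenchymal list and 42.5 kb in the YAP and TEAD list. It was 13.8 kb in the adrenergic list, against 24.2 kb for all genes. By length, 13.6% of all genes of 10002 to 29999 bp had a region in the body or within 50 kb. The share was 23.1% at 30003 to 99989 bp, 43.8% at 100023 to 299895 bp and 66.4% from 300038 bp. The part of gene length in the shares of these lists was not tested.

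Of 28 neuronal differentiation genes, 13 had a region in the body or within 50 kb (46.4%), with a median gene length of 93.3 kb against 24.2 kb for all genes. ALK, the receptor kinase gene mutated in some neuroblastomas, had 14 regions with folds of up to 19.8, NRCAM 10 and ELAVL4 5, and SNAP25 had 1 at an end at 10.8-fold. Of 40 synaptic adhesion and receptor genes, 24 had 1, at a median length of 897 kb, and 66.4% of all genes of 300 kb or more did. DLG2 with 15 and LSAMP with 13 led this list, and IL1RAPL1 had the only region at an end, at 4.62-fold.

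The TALE homeobox list, the family of MEIS2, had 3 of 19 (15.8%), among them MEIS2 with 5 regions and MEIS1 with 3. Neural crest and Schwann cell precursor genes had 5 of 20 (25%), retinoid signalling genes 2 of 18 (11.1%), and cell cycle and DNA replication genes 6 of 34 (17.6%). Each of these 4 lists has an interval that includes 21.3%.

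The remaining lists hold genes of other tissues, HOX genes and short housekeeping genes. Liver genes had 0 of 20 (exact upper bound 16.8%), HOX genes 0 of 39 (9.03%), blood cell genes 2 of 21 (9.52%), olfactory receptor genes 19 of 392 (4.85%) and ribosomal protein genes 5 of 85 (5.88%). These genes are short, and among all protein-coding genes the share was 10.7% under 10 kb and 13.6% at 10 to 30 kb. Both the liver bound and the blood cell interval (1.17 to 30.4%) include 13.6%. HOX and olfactory receptor genes lie in clusters and share windows, so their genes are not separate observations. OR2F2 was the only olfactory receptor gene with a region at an end, at 4.58-fold. Histone genes had 48 of 73 (65.8%), but they lie side by side and share windows, and 61 of them (83.6%) had another MEIS2 replicate 2 peak. At their ends, 7 had a region (9.59%, against 0.851% of all genes) and 38 another peak, with folds in the regions of 3.33 to 8.21, highest at H2AC15. Histone genes have near-identical copies, so these values are uncertain.

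**Figure D3:**
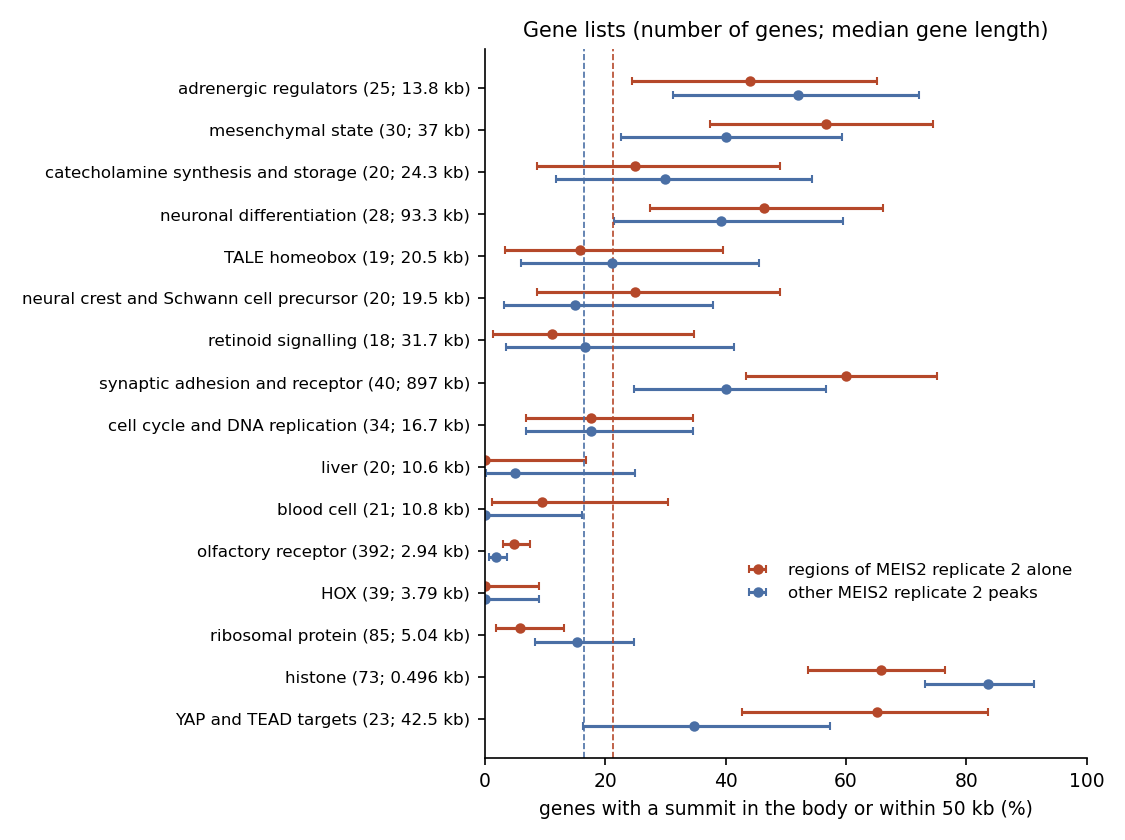
Share of the genes of each list (x axis, %) with a summit in the gene body or within 50 kb, for regions of MEIS2 replicate 2 alone (red, upper) and other MEIS2 replicate 2 peaks (blue, lower), with 95% exact binomial intervals; dashed lines give the shares over all protein-coding genes, and labels the number of genes and their median length. Mesenchymal state genes stand at 17 and 12 of 30 genes, and liver and HOX genes at 0 for the regions.

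The share of MEIS2 replicate 2 peaks that were alone differed between chromosomes, around the 63.4% of all. It was highest on chromosome 4, at 74.0% (70.7 to 77.1%), X at 73.9%, 13 at 73.6% and 3 at 73.2%, and lowest on chromosome 19, at 39.7% (28.8 to 51.5%, 31 of 78 peaks), 22 at 42.9%, 17 at 48.3% and 16 at 48.4%. The TCF4 peaks available to meet also differed. TCF4 had 852, 518, 324 and 1202 peaks on chromosomes 4, X, 13 and 3. It had 2194, 1500, 2266 and 1758 on 19, 22, 17 and 16. Chromosome 1 held the most TCF4 peaks, 3174, at a share alone of 63.3%. Only 18 merged regions held MEIS2 replicate 2 and TCF4 without a further list. Leaving out the TCF4 list gave 8823 regions in place of 8800, and leaving out HAND2 replicate 1 gave 9678. HAND2 peaks by chromosome are not given here. The part of any of these counts in the shares was not tested. Chromosome 8 had the most regions for its genes, 102 per 100 protein-coding genes, and chromosome 19 the fewest, 2.14. The other MEIS2 replicate 2 peaks had their extremes on the same chromosomes, at 44.8 and 3.24 per 100 genes.

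**Figure D4:**
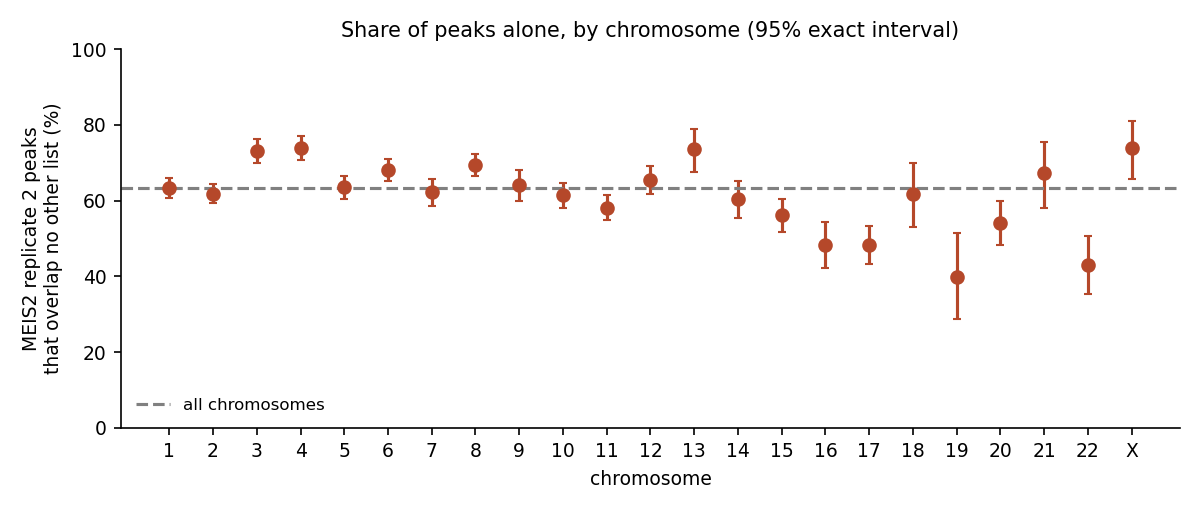
Share of MEIS2 replicate 2 peaks that overlap no other list (y axis, %) on each chromosome (x axis), with 95% exact binomial intervals; the dashed line is the share over all chromosomes, 63.4%. Chromosomes 3, 4, 13 and X lie above the line and 16, 17, 19 and 22 below it.

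How far the regions lay from other lists is bounded by the rule, which set the distance above 0, and is given as a description. The nearest peak of another list was a median of 23258 bp away (22083 to 24650). Within 1 kb of such a peak lay 605 regions (6.88%), within 10 kb 33.5% and within 100 kb 77.7%. HAND2 replicate 1 was the nearest list for 3761 regions, TCF4 for 2145, HAND2 replicate 2 for 1936 and MEIS2 replicate 1 for 618, and 340 were equally near to more than 1 list. HAND2 replicate 2 has more peaks than HAND2 replicate 1, at 33484 and 30410. The list of MEIS2 replicate 1, with 9595 peaks, lay a median of 114666 bp away.

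Strong and weak regions lay at like distances from other lists: the median distance was 22691 bp at pile-ups of 6 to 8 and 22582 bp at 21 or more, with overlapping intervals. The nearest MEIS2 replicate 2 peak that overlapped another list was a median of 109356 bp away. Just inside the rule stood regions in ACER3, beyond MEIS2 and in FSTL4, each 3 bp from a HAND2 peak, with folds of 9.75, 7.37 and 5.31. Just outside it stood MEIS2 replicate 2 peaks near ANG, which overlapped HAND2 replicate 1 by 1 bp (6.41-fold), near SORL1, by 2 bp with TCF4 (4.75-fold), and in AMN1, by 2 bp with HAND2 replicate 1 (4.53-fold). Few peaks were this close to the edge: 91 regions lay within 100 bp of another list, and 169 of the 5071 other peaks overlapped by 100 bp or less.

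**Figure D5:**
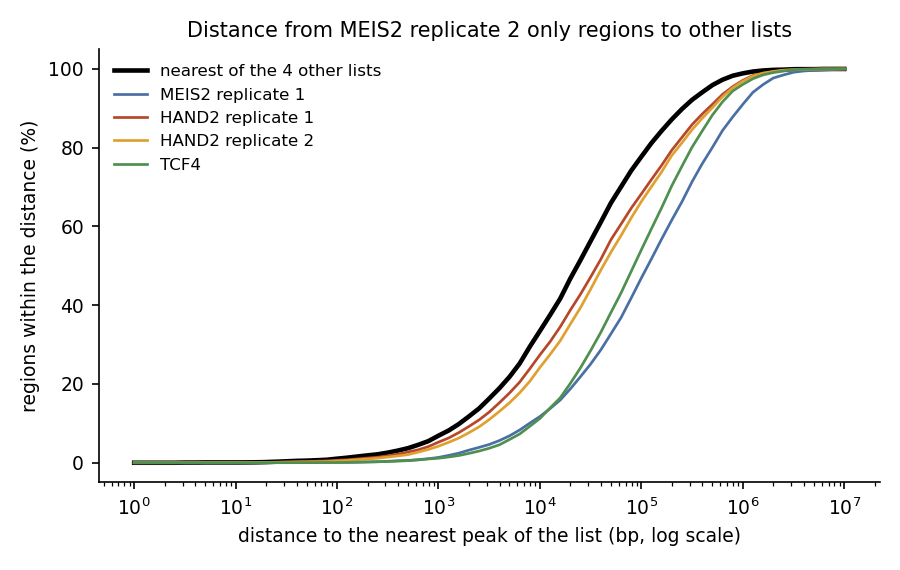
Share of the 8800 regions (y axis, %) within a given distance of the nearest peak of each other list (x axis, bp, log scale); the thick line takes the nearest of the 4 lists. The thick line passes 33.5% at 10 kb and 77.7% at 100 kb, and the curve of MEIS2 replicate 1 lies lowest at 100 kb.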

How the data were processed

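The data were 5 CUT&Tag peak lists, 1 per library, of SK-N-BE(2) cells. Per the submitters' processing notes the build was hg38 and the tools MACS3 3.0.0a6, bcl2fastq 2.17 and Bowtie2, whose version is not given in the sources used here. The authors deposited for each peak a score (not used), −log10 p and −log10 q values, and the fold, a ratio at the summit. The lists hold no read totals. Fold describes and ranks peaks within the MEIS2 replicate 2 list only.

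Chromosomes other than 1 to 22 and X were not used (5 peaks of MEIS2 replicate 2, 3 of MEIS2 replicate 1, 7 of TCF4). The pile-up of a peak is the whole number that returns both its deposited fold and its Poisson p, within 5e-05 of each value. The fold was read as the pile-up plus 1, divided by the background plus 1. Such a number existed for 13869 of 13871 MEIS2 replicate 2 peaks and for every region described; this step and the merging were tested on simulated data. The background unit of 1 control fragment was estimated as 0.3677. This step made the largest share of backgrounds above the lowest whole multiples, within 0.03, and that share was 45.4%. The unit was read as this library's depth relative to the control, taken here to be the IgG library. All values in control fragments rest on it. Above the lowest background, backgrounds need not be whole numbers of control fragments, and they are levels, not counts.

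A summit is at a gene end within 1 kb of either end of a RefSeq protein-coding gene (GRCh38.p14), and 5′ or 3′ comes from the promoter table, which matched 15812 of 19974 genes. Promoters count where a region covers 1 base or more, and motifs were searched in the whole 300 bases. Coordinates are 1-based. Shares have 95% exact (Clopper-Pearson) intervals, fold intervals are exact Poisson with the background fixed, and medians have binomial intervals; all cover counting error only, since fragments may share a molecule and peaks of 1 library are not replicates. No test of a difference was run.

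Named genes are the 10 regions of highest fold by their nearest gene, the 10 of highest fold at gene ends, the 10 genes with most regions (11 with ties), up to 4 genes of each list with a region at an end, 3 regions on each side of the rule's edge, and the 8 promoters of highest fold; other list genes were chosen after their values were seen, mostly those with the most regions. The regions, the 16 gene lists and the motifs were chosen with earlier results of these data known. Python 3.11.15, numpy 2.4.6, pandas 2.3.3, scipy 1.17.1 and matplotlib 3.10.9 were used.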

Additional observations from a re-analysis of the deposited data

How the results depend on the processing

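Of 39 alternative values, 29 stayed within the main value's interval or, for counts, within 1.5 times of it. The number of regions ran from 6380 (a −log10 q of 5 or more in MEIS2 replicate 2) to 10100 (when a peak overlapped over less than 50% of its length also counted as alone), against 8800, and merging intervals up to 1000 bp apart left 7917. Leaving out 1 other library at a time gave 8823 to 9678. The share at a gene end was 0.693% with a 500 bp window, 2.75% with a 2 kb window and 1.86% when any overlap with the 1 kb window counted, against 1.36%; the width of the window sets these values. Genes with a region at an end numbered 104 and 310 with those windows, against 170, and 111 when MEIS2 replicate 2 peaks needed a −log10 q of 5. At that threshold the share inside a gene was 48.3%, against 49.3%. Leaving out 1 other list at a time moved the median distance to other lists to between 24168.5 bp (without MEIS2 replicate 1) and 28090 bp (without TCF4), against 23258 bp, with 27615.5 bp without HAND2 replicate 1 and 25189 bp without HAND2 replicate 2; fewer peaks to meet lengthen it by construction. Without 1 Mb to each side of MYCN, an alternative chosen after seeing the data, 8766 regions and a gene end share of 1.37% remained.

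No paired analysis was possible because the regions come from 1 library and no result rests on a test between groups. The planned motif windows around summits were not run, as no genome sequence was used here. Depth limits what absence means: a site missing from MEIS2 replicate 1, or from any other list, is below that list's threshold and is not shown to be free of the factor. Most regions have pile-ups near 11 fragments, so single folds are imprecise, and no value has a replicate.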

Other observations

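Some regions of MEIS2 replicate 2 alone lay close together. Joined where neighbours were at most 10 kb apart, the 8800 regions formed 7324 groups, and 2546 regions (28.9%) stood in 1070 groups of 2 or more. The largest group, 13 regions at chr2:16332675-16388380, lay in the stretch beside MYCN, with a median pile-up of 197 over 148 control fragments at the median. The next 2 held 8 regions each at the lowest background: chr3:102156404-102183161, 215362 bp from ZPLD1, with folds of 3.97 to 15.3, and chr4:173998816-174029476, 222512 bp from FBXO8, with folds of 5.67 to 22.1. The group near ZPLD1 held no peak of any other list in its span, and that near FBXO8 held 3. Inside PALMD, 7 regions at chr1:99659913-99686117 had folds of 5.10 to 10.2, again with no peak of another list in the span, and 7 at chr11:96074471-96103293 lay inside MAML2, among 5 peaks of other lists.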
